A study of Arabidopsis thaliana with 6 samples.

Results

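Transcript levels of 3 stress-induced chaperone genes of Arabidopsis thaliana were described across 3 growth conditions. AT5G51440 and AT1G53540 encode small heat shock proteins, and AT5G48570 (synonyms ROF2 and FKBP65) encodes an FKBP-type peptidyl-prolyl isomerase that acts as a co-chaperone. They were chosen by locus, without a threshold on their values but with earlier results of these data known. They are 3 of 13333 genes to which the annotation used here gives a probe set of their own. All 3 were measured, each by 1 probe set. That annotation names no gene for 8730 of the 22746 probe sets that are not array controls. A listed gene counted below as not measured may therefore be on the array without a name. The seedlings were wild-type accession Col-0, harvested at 7 days, and each array was hybridised with total RNA of whole seedlings. The groups were light (a daily photoperiod of 16 h, with 8 h of darkness, 2 arrays), H2O2 (grown in the dark and treated with 5 mM hydrogen peroxide, 2 arrays) and dark (grown in the dark, 2 arrays). The series describes the replicates as biological, and it grew seedlings in the dark to lower the H2O2 that they make themselves. When the H2O2 was given, and for how long, is not stated in the sources used here.

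Small heat shock proteins bind unfolding proteins without using ATP and hold them in a form that ATP-driven chaperones such as HSP70 and HSP101 can refold. Their genes are nearly silent in most unstressed vegetative tissue, are switched on by heat shock transcription factors during heat and oxidative stress, and are also active in maturing seeds. AT1G53540 belongs to the cytosolic class I proteins, and AT5G51440 belongs to the mitochondrial group. The FKBP protein encoded by AT5G48570 carries tetratricopeptide repeats, a type of domain that can bind HSP90. Its gene is known for strong induction by heat.

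Values are log2 expression, so a difference of 1 is a 2-fold change. A level is called dim where the mean of the group is below 5.16, since 40% of probe sets have a 6-array mean below that value. The table holds no detection calls, so the size of a difference from a dim level is uncertain. Differences were tested with limma across all 22746 probe sets that are not array controls. A call means a Benjamini-Hochberg adjusted p under 0.05. Some counts are also given at an unadjusted p under 0.05, without the share of all probe sets at that threshold. The 2 arrays of a group correlated at r = 0.993 in light, 0.995 with H2O2 and 0.993 in the dark. The bacterial hybridisation controls, which are added during processing, had a median of 8.68 and 9.54 in light, 9.08 and 8.96 with H2O2, and 9.47 and 10.13 in the dark. Centring the arrays on these controls raised the median difference of all probe sets by 0.78 for H2O2 against dark and by 0.69 for light against dark, and moved it by -0.0894 for light against H2O2. The differences given here are on the scale of the deposited values.

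AT5G51440 was higher in light and with H2O2 than in the dark by nearly the same amount. Its log2 level was 5.58 and 5.47 on the light arrays, 5.50 and 5.44 on the H2O2 arrays, and 4.31 and 4.43 on the dark arrays. The light and H2O2 arrays overlapped, and all 4 lay above both dark arrays, where the gene was dim. With H2O2 the mean was 5.47 ± 0.0425 (SD, n = 2), against 4.37 ± 0.0814 in the dark, which is 2.14-fold higher with a 95% interval of 1.74 to 2.62 (limma adjusted p = 0.000899). In light it was 2.22-fold higher than in the dark, with an interval of 1.81 to 2.72 (limma adjusted p = 7.94e-05). The difference of light minus H2O2 was 0.06 on the log2 scale, with an interval of -0.24 to 0.35 (limma adjusted p = 0.792). A light level more than 1.27 times the H2O2 level, or less than 0.847 times it, lies outside that interval. This rise with H2O2 stood high among all probe sets, of which 2.95% had a larger one. In light 10.8% of probe sets rose more.

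AT1G53540 showed the same order at a smaller size. Its log2 level was 4.61 and 4.72 in light, 4.51 and 4.51 with H2O2, and 4.03 and 4.11 in the dark. No groups overlapped, but every group mean was dim. In light the mean of 4.67 ± 0.0783 lay 0.60 ± 0.13 (SE) above the dark mean of 4.07 ± 0.052 (SD, n = 2 each; limma adjusted p = 0.00371), a 1.51-fold difference. With H2O2 the level was 1.36-fold that in the dark, with an interval of 1.11 to 1.66 (limma adjusted p = 0.0401). That call was lost on leaving out any array of either group (limma adjusted p of 0.112 to 0.15), with a variance trend and robust fit (0.0788), and under centring on the hybridisation controls (0.0847). Light minus H2O2 was 0.16, with an interval of -0.13 to 0.45 (limma adjusted p = 0.389). The 2 small heat shock genes correlated at r = 0.96 over the 6 arrays, as a description of points that share their condition and normalisation.

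AT5G48570 had 3 separate levels. It stood at 7.51 and 7.46 in light, 4.04 and 4.28 with H2O2, and 3.32 and 3.01 in the dark. The gene was dim with H2O2 and in the dark and was not dim in light, and no groups overlapped. Its light mean of 7.48 ± 0.0324 (SD) exceeded the H2O2 mean of 4.16 ± 0.175 (n = 2 each) 10.0-fold, with an interval of 7.83 to 12.8 (limma adjusted p = 7.65e-07). Against the dark mean of 3.17 ± 0.219 the light level was 19.9-fold higher, with an interval of 15.6 to 25.5 (limma adjusted p = 1.94e-07). Only 76 of the 22746 probe sets, or 0.334%, had a larger rise in light. With H2O2 the level was 1.99-fold that in the dark, with an interval of 1.56 to 2.54 (limma adjusted p = 0.00305), and 3.76% of probe sets rose more. Over the 6 arrays AT5G48570 correlated with AT5G51440 at r = 0.701 and with AT1G53540 at r = 0.827.

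**Figure D1:**
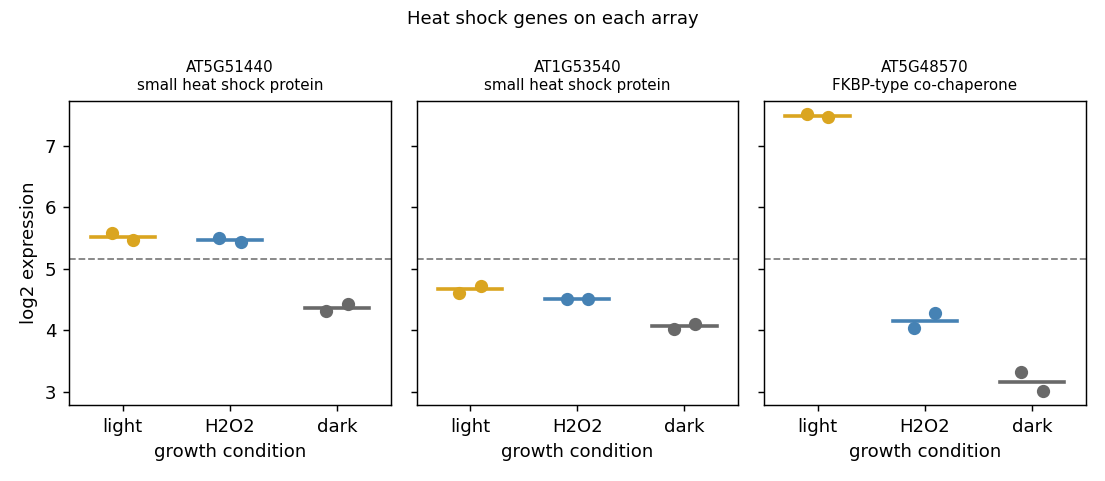
Log2 expression (y axis) of the 3 genes on every array, with light, H2O2 and dark along the x axis. Points are arrays, bars are means of 2 arrays and the dashed line is the dim bound of 5.16; AT5G51440 sits at 5.52 in light and 5.47 with H2O2, while AT5G48570 reaches 7.48 in light and 4.16 with H2O2.

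All 3 genes were thus called higher with H2O2 than in the dark, in a comparison that called 20.5% of all probe sets, 12.3% higher and 8.18% lower. All 3 were called higher in light than in the dark, where 48.0% of all probe sets were called, 23.0% higher and 25.0% lower. AT5G48570 alone among the 3 was called between light and H2O2, where 39.5% of all probe sets were called, 17.4% higher and 22.0% lower. The median difference over all probe sets was -0.02 for H2O2 against dark, -0.06 for light against dark and -0.06 for light against H2O2. The 2 comparisons against dark share the dark arrays. Since the 3 genes were chosen with earlier results of these data known, their calls are descriptions of these genes alone.

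**Figure D2:**
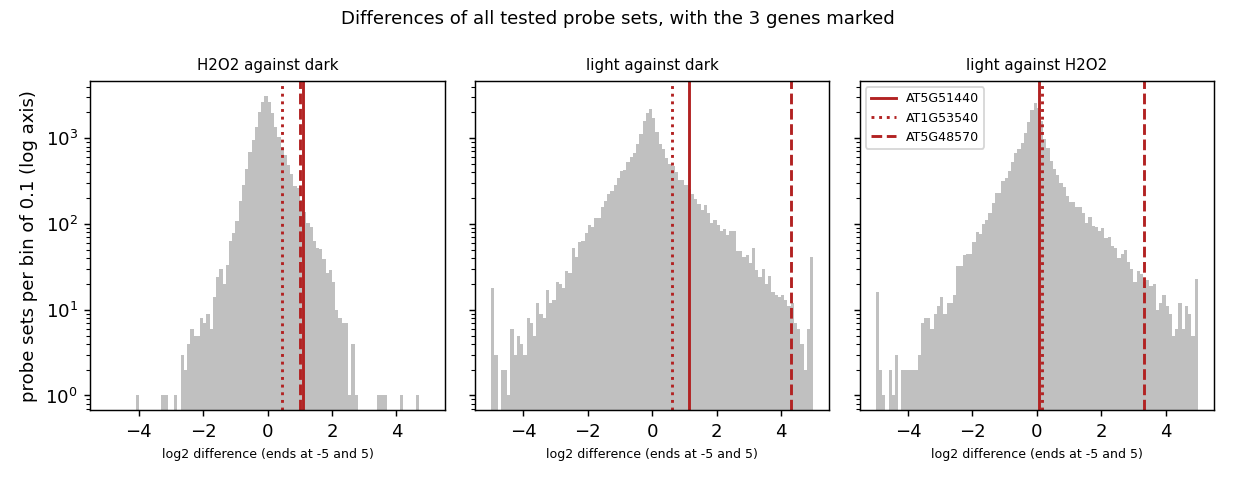
Number of tested probe sets (y axis, log scale) by log2 difference (x axis, values beyond -5 and 5 drawn in the end bins) in each comparison, with the 3 genes as vertical lines. With H2O2 the lines lie at 1.09, 0.44 and 0.99; in light AT5G48570 lies at 4.32, far from the small heat shock genes at 1.15 and 0.60.

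Of 17 genes on a list of this family, 9 were measured. With H2O2, AT5G51440 and AT1G53540 rose and the other 7 were not called by limma, with 1 higher and 1 lower at an unadjusted p under 0.05, in a comparison that called 12.3% of all probe sets higher. In light against dark 4 of these 7 rose and 3 were not called, at a median log2 difference of 0.50, beside 23.0% of all probe sets called higher. In light against H2O2 4 of them rose, at a median of 0.61, beside 17.4% of all probe sets. Under centring on the hybridisation controls 2 of those 4 calls for light against H2O2 ended. Whether the family differs from the 2 genes in its response to H2O2 was not tested.

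AT2G29500, another cytosolic class I gene, came nearest to a call with H2O2. It had 5.38 and 5.25 with H2O2, against 4.91 and 4.91 in the dark (difference 0.40 ± 0.13, SE, limma adjusted p = 0.0614). In light it had 5.02 and 4.88, a difference from dark of 0.04 ± 0.13 that was not called. The gene was dim in light and in the dark. Light minus H2O2 was -0.36 ± 0.13 (limma adjusted p = 0.0565), a fall that was called after quantile normalisation (0.0437).

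AT1G54050, whose product belongs to a nuclear class of small heat shock proteins, rose strongly in light. It had 6.80 and 6.71 in light, 5.04 and 4.52 with H2O2, and 4.53 and 4.48 in the dark. The gene was dim with H2O2 and in the dark. The light arrays lay above the rest, 4.76-fold above dark (limma adjusted p = 7.96e-06) and 3.94-fold above H2O2, while the H2O2 and dark arrays overlapped (0.27 ± 0.18, SE, limma adjusted p = 0.325).

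AT4G21870 had 10.26 and 10.19 in light, 7.87 and 8.14 with H2O2, and 8.29 and 8.21 in the dark. It rose 3.93-fold in light against dark (limma adjusted p = 4.7e-06), and its H2O2 minus dark difference was -0.24 ± 0.14 (SE, not called). AT2G19310 followed the same order at a smaller size, with means of 8.38 in light, 7.59 with H2O2 and 7.89 in the dark. AT5G37670, a gene of the peroxisomal member of the family and dim in all groups, rose by 0.60 ± 0.13 in light against dark, with an H2O2 minus dark difference of -0.01 ± 0.13. Under centring on the hybridisation controls, the H2O2 minus dark differences of AT4G21870, AT2G19310 and AT5G37670 turned positive and stayed uncalled. The same centring ended the calls of AT2G19310 in light against dark (limma adjusted p = 0.0623) and light against H2O2 (0.541), and that of AT5G37670 in light against H2O2 (0.775).

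AT1G52560, of the mitochondrial group like AT5G51440, had means of 3.46 in light, 3.07 with H2O2 and 3.07 in the dark. ATHSP22.0, of the endoplasmic reticulum, had means of 3.50 in light, 3.83 with H2O2 and 3.76 in the dark. Both were dim in every group and were called in no comparison. AT1G52560 was called in light after quantile normalisation (limma adjusted p = 0.0284 against dark), with a variance trend and robust fit (0.0365) and without light replicate 1 (0.025).

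**Figure D3:**
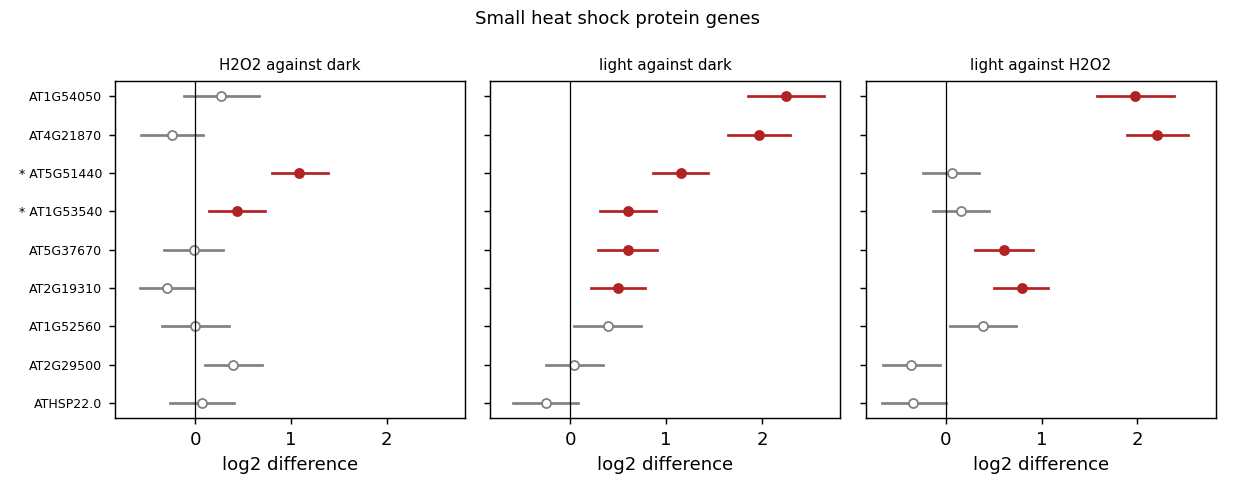
Log2 difference with its 95% interval (x axis) for 9 small heat shock protein genes in 3 comparisons; red is called higher, open grey is not called, and asterisks mark AT5G51440 and AT1G53540. The 2 marked genes are the called ones with H2O2, and their intervals for light against H2O2 span 0.

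AT5G48570 was set beside the other FKBP-type isomerases, a family that helps proteins fold by turning proline bonds and that has many members in the chloroplast. Of 22 listed genes 13 were measured. Of the 12 others 9 rose in light against dark and the same number in light against H2O2, at median log2 differences of 1.53 and 1.52, and none was called lower in either comparison (limma, with 0 and 1 lower at an unadjusted p under 0.05). Over all probe sets 23.0% and 17.4% were called higher in these comparisons. Under centring on the hybridisation controls the light against H2O2 calls of AT3G60370 (limma adjusted p = 0.104) and AT1G73655 (0.75) ended. The difference of AT1G73655 in that comparison, 0.63, was 0.49 without H2O2 replicate 1 or light replicate 1. With H2O2 against dark 2 of the 12 were called higher, near the 12.3% of all probe sets that were called higher. At an unadjusted limma p under 0.05, 6 of the 12 were higher and 0 lower. The share of all probe sets at that threshold is not given, so this count cannot be set against a background. The median difference of the 12 was 0.35, against -0.02 for all probe sets. Whether the family differs between the comparisons was not tested.

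The 9 genes that rose in light encode proteins known or predicted to lie in the chloroplast thylakoid lumen, a grouping made from background knowledge after the values were seen. Their light minus dark differences ran between 0.68 and 4.53. AT3G10060 had the highest of these differences, with 9.40 and 8.86 in light, 5.56 and 4.97 with H2O2, and 4.58 and 4.62 in the dark. This gene was dim in the dark. Its light level stood 4.53 ± 0.23 (SE) above dark, and its H2O2 level 0.66 ± 0.23 above dark was not called (limma adjusted p = 0.0695), though it was in a fit of the arrays compared alone (0.043), with a variance trend and robust fit (0.0469) and under centring on the hybridisation controls (0.0361). AT2G43560 had 10.60 and 10.64 in light, 7.75 and 7.61 with H2O2, and 6.99 and 7.29 in the dark. It rose by 3.48 ± 0.15 in light and by 0.54 ± 0.15 with H2O2, and its call with H2O2 (limma adjusted p = 0.0324) ended without H2O2 replicate 1, H2O2 replicate 2 or dark replicate 1 (0.093 to 0.17) and under centring on the hybridisation controls (0.0604). AT1G20810, AT5G13410, AT1G18170 and AT4G26555 rose in light by 2.13, 2.12, 1.99 and 1.71. AT3G60370, AT4G19830 and AT1G73655 rose by 1.35, 1.31 and 0.68, and the call of AT1G73655 ended without dark replicate 2 (limma adjusted p = 0.0664) or light replicate 1 (0.0567).

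The 3 other measured FKBP genes showed no called difference between light and dark. AT3G55520 had 7.27 and 6.71 in light, 6.91 and 7.49 with H2O2, and 6.58 and 6.07 in the dark. Its replicates differed widely, and its rise of 0.87 ± 0.26 with H2O2 (SE, limma adjusted p = 0.0439) was not called without H2O2 replicate 1, H2O2 replicate 2 or dark replicate 2 (0.0562 to 0.275), nor after quantile normalisation (0.0636). It was called in light against dark without dark replicate 1 (0.0381) or light replicate 2 (0.0273), under centring on the hybridisation controls (0.0285) and with the lowest 40% of probe sets left out (0.0497). AT3G12340 and AT5G05420 had H2O2 minus dark differences of 0.33 and 0.36 and light minus dark differences of 0.21 and 0.02, none called.

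**Figure D4:**
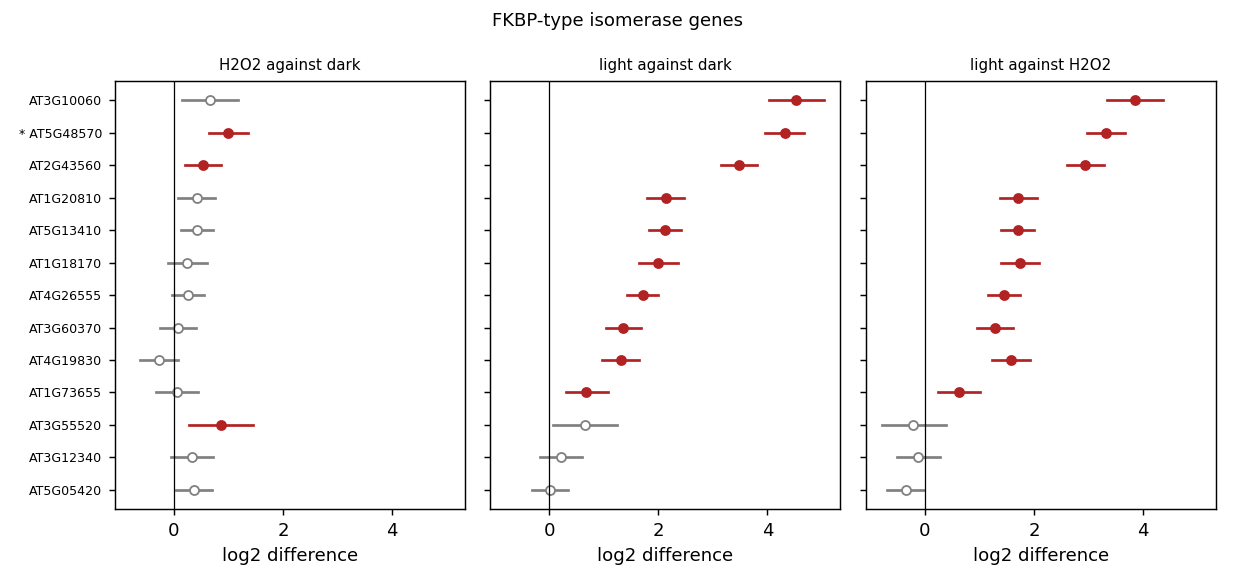
Log2 difference with its 95% interval (x axis) for 13 FKBP-type isomerase genes in 3 comparisons; red is called higher, open grey is not called, and the asterisk marks AT5G48570. In light 10 genes are called, AT5G48570 at 4.32 and AT3G10060 at 4.53 among them, and with H2O2 3 are called.

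HSP90 chaperones and their co-chaperones were also examined. Of 16 listed HSP90 and co-chaperone genes 6 were measured, all of them co-chaperones, and 4 rose with H2O2 and 4 rose in light, at median log2 differences of 0.94 and 0.80. Over all probe sets 12.3% were called higher with H2O2 and 23.0% in light. Hop2 had means of 8.44 in light, 8.39 with H2O2 and 7.08 in the dark. Its differences from dark were 1.36 ± 0.15 in light and 1.31 ± 0.15 with H2O2 (SE, limma adjusted p = 6.12e-05 and 0.000728), and light minus H2O2 was 0.05 ± 0.15. The Hop proteins bridge HSP70 and HSP90. Hop1 had means of 8.11 in light, 8.25 with H2O2 and 7.34 in the dark. AT4G02450, encoding a p23-type co-chaperone of HSP90, had means of 7.81 in light, 8.00 with H2O2 and 6.97 in the dark, and was called against dark in both conditions.

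Hop3, the stress-inducible Hop gene, had 5.23 and 4.90 in light, 4.57 and 4.33 with H2O2, and 3.66 and 3.31 in the dark, and was dim in every group. It showed the order of AT5G48570 at a smaller size, with light minus H2O2 at 0.61 ± 0.18 (SE, limma adjusted p = 0.021), a call that ended without H2O2 replicate 2 (0.148) or light replicate 1 (0.127) and under centring on the hybridisation controls (0.765). Its rise with H2O2 (0.96 ± 0.18) was not called without H2O2 replicate 1 (limma adjusted p = 0.0607). AT3G12050 and SGT1A, the remaining measured co-chaperone genes, were called in no comparison.

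HSP70 genes and their co-chaperones went in both directions. Of 27 listed genes 5 were measured, and in each comparison with dark 2 rose and 1 fell. Over all probe sets 12.3% were called higher and 8.18% lower with H2O2, and 23.0% higher and 25.0% lower in light. AT2G20560, encoding a DnaJ-type co-chaperone of HSP70, had means of 5.99 in light, 5.69 with H2O2 and 4.60 in the dark, where it was dim. Its differences from dark were 1.39 ± 0.15 in light and 1.09 ± 0.15 with H2O2 (SE). ATERDJ3B, a DnaJ-type protein of the endoplasmic reticulum, had means of 9.00 in light, 8.39 with H2O2 and 7.40 in the dark. Hsp70-2, a cytosolic HSP70 gene, fell to 7.01 in light and 7.87 with H2O2, against 8.35 in the dark. Its fall with H2O2 (-0.48 ± 0.14, SE, limma adjusted p = 0.0429) lost its call on leaving out any of these 4 arrays of the dark and H2O2 groups (0.0724 to 0.216), and it became 0.30 under centring on the hybridisation controls. Under that centring its light minus dark difference was -0.65 in place of -1.34 and was not called (limma adjusted p = 0.339), nor was light minus H2O2 (-0.95, 0.268).

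**Figure D5:**
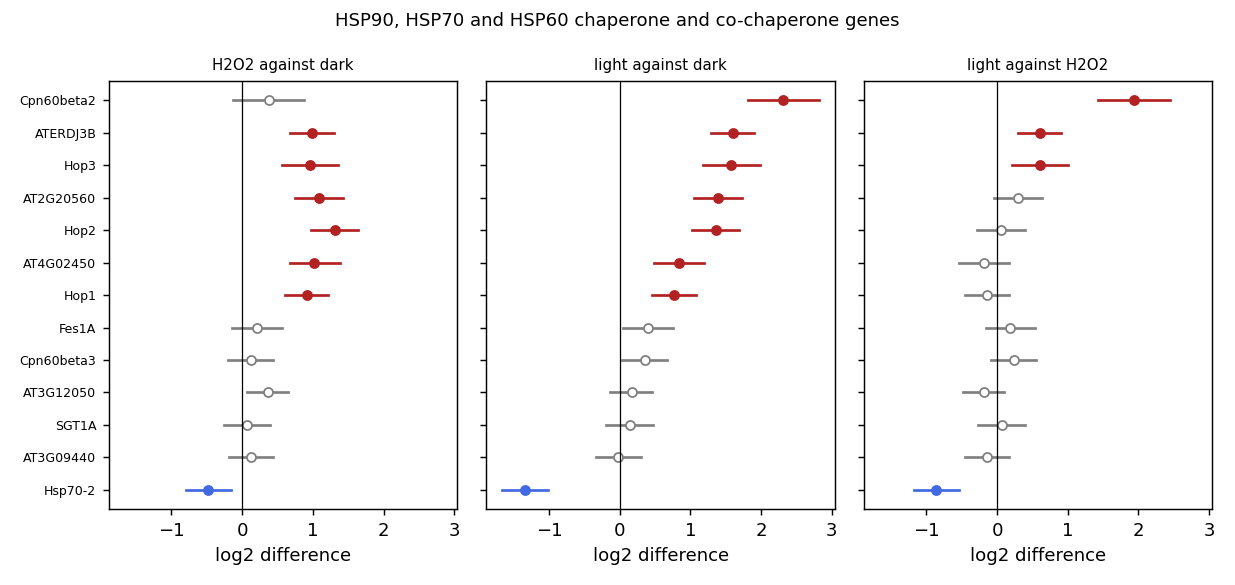
Log2 difference with its 95% interval (x axis) for 13 measured genes of HSP90 co-chaperones, HSP70 and its co-chaperones, and HSP60 chaperonins; red is called higher, blue called lower and open grey not called. Hop2 lies at 1.31 with H2O2 and 1.36 in light, and Hsp70-2 at -0.48 and -1.34, which become 0.30 and -0.65, neither called, with centring on the hybridisation controls.

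Further folding genes gave few or mixed calls. Of 12 HSP100 and HSP60 genes 2 were measured, and Cpn60beta2, a subunit of the chloroplast chaperonin, rose by 2.31 ± 0.22 (SE) in light and was not called with H2O2 (0.38 ± 0.22). Of 9 other heat-induced genes HSA32 and BOB1 were measured and were not called, with H2O2 minus dark differences of 0.16 and 0.14 and light minus dark differences of 0.20 and -0.21. Of 14 endoplasmic reticulum folding genes 4 were measured. With H2O2 2 of them rose, ATERDJ3B by 0.99 ± 0.13 and CRT1b, a calreticulin gene, by 0.78 ± 0.16, the second not called without H2O2 replicate 1 or dark replicate 2 (limma adjusted p = 0.0896 and 0.0781). In light against dark 3 of the 4 rose and 1 fell, a fall with no call under centring on the hybridisation controls. The gene that fell has 2 probe sets, and only the one with the higher mean was used. ATERDJ3B is counted both here and in the HSP70 list. Over all probe sets 12.3% were called higher with H2O2, and 23.0% higher and 25.0% lower in light. None of 21 listed heat shock transcription factor genes is given a probe set of its own by the annotation used here, and they were not analysed. The same holds for HSP101, HSP90.1 and HSP18.2 of the lists above. Whether such genes lie among the 8730 unnamed probe sets was not examined.

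AT5G51440 is also known as a gene that rises when mitochondria are impaired, and 5 of 13 listed genes of that kind were measured, this one included. With H2O2 AT5G51440 and AT2G21640 rose and the other 3 were not called. Of those 3, 2 were lower at an unadjusted limma p under 0.05. Over all probe sets 12.3% were called higher with H2O2, and 23.0% higher and 25.0% lower in light. AT2G21640 had means of 5.86 in light, 6.37 with H2O2 and 5.80 in the dark, with no call in light against dark (0.06 ± 0.15, SE). Its H2O2 call (limma adjusted p = 0.0285) was lost on leaving out any array of the dark or H2O2 group (0.0601 to 0.151), after quantile normalisation (0.0797) and under centring on the hybridisation controls (0.0532). AT5G09570 rose by 1.31 ± 0.14 in light against dark. NDB2, an alternative NADH dehydrogenase gene, and AT2G41730 fell in light against dark by 0.89 and 1.69. Neither fall was called under centring on the hybridisation controls (-0.20 and -1.01). In light against H2O2, 1 of the 5 was called higher and 2 lower, beside 17.4% and 22.0% of all probe sets. AT2G41730 was 1 of the lower ones (-2.11 ± 0.2, SE, limma adjusted p = 3.25e-05) and kept that call under the centring.

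The genes whose profiles over the 6 arrays were most like each of the 3 were found by Pearson correlation among genes whose SD over the arrays was at least 0.5 of theirs. The points share their 3 conditions, so these are descriptions. For AT5G51440 the highest of 6074 genes were AT5G17510, AT5G62550, AT4G11790, AT2G28310 and BGLU42, a beta-glucosidase gene, with r between 0.9946 and 0.9976, and 19 genes (0.313%) passed 0.99. For AT1G53540 they were RBL, AT4G38900, AT5G06050, AT5G66540 and AT1G73180, with r between 0.9949 and 0.9972, and 13 of 10767 genes (0.121%) passed 0.99. For AT5G48570 they were AT3G43540, PRK, PSAN, AT1G20810 and PAM68, with r between 0.9974 and 0.9991, and 86 of 824 genes (10.4%) passed 0.99. The SD over the arrays was 0.58 for AT5G51440, 0.28 for AT1G53540 and 2.03 for AT5G48570. The 3 pools of genes therefore differ in how much their members vary, and the 3 shares cannot be compared. PRK encodes phosphoribulokinase of the Calvin cycle, PSAN a subunit of photosystem I and PAM68 an assembly factor of photosystem II. AT1G20810 is 1 of the FKBP genes described above. PRK had 12.32 and 12.32 in light, 9.73 and 9.71 with H2O2, and 9.20 and 8.90 in the dark.

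Markers of tissues that whole seedlings hold moved with the groups as well. The mean log2 level of 7 measured green tissue genes was 12.36 and 12.35 in light, 10.11 and 10.02 with H2O2, and 9.78 and 9.81 in the dark. All 7 were called higher in light against dark and against H2O2, and 2 with H2O2 against dark, PRK and PSAN. Over all probe sets 23.0%, 17.4% and 12.3% were called higher in these 3 comparisons, and 8.18% were called lower with H2O2 against dark. Leaving out dark replicate 1 kept 1 of these 2 calls, and leaving out dark replicate 2 or either H2O2 array kept 0. Under centring on the hybridisation controls 1 of them was called. The mean of 6 measured late seed genes was 3.53 and 4.27 in light, 6.24 and 6.15 with H2O2, and 4.15 and 4.37 in the dark. With H2O2 5 of the 6 rose, and 4 were called under centring on the hybridisation controls. The call of the late seed gene M17 ended with a variance trend and robust fit (limma adjusted p = 0.0856). The mean of 3 root hair genes was 7.50 and 7.14 in light, 4.74 and 4.66 with H2O2, and 6.50 and 5.94 in the dark, and all 3 fell with H2O2, with no call under centring on the hybridisation controls. The part of tissue makeup in the differences of the 3 heat shock genes was not tested. In whole seedlings a change in the number of cells that use a gene and a change in RNA per cell cannot be told apart.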

How the data were processed

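Per the labels, biotin-labelled material from total RNA of whole seedlings was measured on 6 Affymetrix ATH1 arrays, 1 sample each. The authors deposited log2 expression values, with RMA and limma named in the submitters' processing notes; their versions, the chip definition and settings are not stated there. The log2 scale is inferred from the range of the values. Arrays have no depth, so their number limits the precision. Groups and replicate numbers came from the sample titles.

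After leaving out 64 array controls, 22746 probe sets were tested, without a filter, using R 4.3.3 and limma 3.58.1 (lmFit, then eBayes, on all 6 arrays, 3 residual and 5.84 prior degrees of freedom, 2-sided, Benjamini-Hochberg over all probe sets per comparison). The steps were tested on simulated data. Gene names came from the platform annotation, updated through the RefSeq table of TAIR10.1: 13513 probe sets name 1 gene, 503 several and 8730 none, and 13484 of the first kind matched. No coordinates or sequences are given, and promoter motifs were not analysed here.

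The 3 genes and all lists were chosen with earlier results of these data known. Named were the 3 genes, every measured small heat shock and FKBP gene, up to 3 called genes per other list and comparison (or 2 values where none was called), and 5 genes per member by likeness. Hop1, AT3G12050 and SGT1A were named after their values were seen. Alternatives were the arrays of the compared groups alone, a replicate block, quantile normalisation, centring on 18 hybridisation control probe sets, filters on dim probe sets (40%, and 20% added after seeing the data), a variance trend with robust fit, and leaving out each array.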

Additional observations from a re-analysis of the deposited data

How the results depend on the processing

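The planned filter on the lowest 40% of probe sets removes all 3 genes, and no gene has another probe set of its own, so those alternatives give no value for them. Over the 12 others, AT5G48570 was called in all 3 comparisons, and AT5G51440 in both against dark, as was AT1G53540 in light against dark. AT1G53540 with H2O2 against dark was not called in 7 of 12: 0.44 with a replicate block (limma adjusted p = 0.0507) or a variance trend with robust fit, 1.22 with centring on the hybridisation controls, and 0.40 to 0.48 with 1 array left out. With that centring AT5G51440 in light against H2O2 turned to -0.03, uncalled. The number of probe sets called for H2O2 against dark (4656) was 2379 with that centring, 98.9% of them higher against 60.0%, and 2135 to 4949 with 1 array left out. For light against dark (10920) it was 5261, 88.2% higher against 48.0%, and for light against H2O2 (8981) it was 2576, 54.4% higher against 44.2%. This centring adds the replicate spread of the controls to every probe set.

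The other reversals were of differences that were not called, except that of Hsp70-2. With centring on the hybridisation controls, H2O2 minus dark became 0.77 for AT5G37670, 0.54 for AT4G21870, 0.50 for AT4G19830, 0.48 for AT2G19310 and 0.30 for Hsp70-2, light minus dark became 0.43 for ATHSP22.0 and 0.48 for BOB1, and light minus H2O2 became -0.04 for HSA32. After quantile normalisation light minus dark became -0.02 for AT5G05420 and -0.09 for AT2G29500, and H2O2 minus dark became -0.03 for AT3G60370. With 1 array left out, H2O2 minus dark ranged between -0.12 and 0.09 for AT5G37670, -0.07 and 0.21 for AT3G60370, -0.09 and 0.23 for ATHSP22.0, -0.10 and 0.21 for AT1G73655, and -0.08 and 0.08 for AT1G52560. Light minus dark ranged between -0.11 and 0.15 for AT5G05420, -0.02 and 0.43 for AT3G12340, and -0.03 and 0.11 for AT2G29500, and light minus H2O2 between -0.50 and 0.08 for AT3G55520 and -0.35 and 0.10 for AT3G12340. The cause was not tested.

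Replicate numbers are shared between groups, but the deviations of same-numbered arrays correlated at -0.032, 0.069 and -0.00186 over the 3 pairs of groups, so the numbers were not taken to pair the arrays. With the replicate block 4590, 10905 and 8972 probe sets were called for H2O2 against dark, light against dark and light against H2O2. The block ended the H2O2 call of AT3G55520 (0.87, limma adjusted p = 0.0526) and gave one to AT3G10060 (0.66, 0.0349).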
